A study of Mus musculus with 8 samples.

Results

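Hypothalamic expression of 4 genes tied to cold and to body temperature was compared between mice that breathed 7% oxygen for 2 hours (hypoxia, 4 mice) and mice kept in room air, labelled as 21% oxygen for 2 hours (normoxia, 4 mice). The genes were Rbm3, Cirbp, Trpm2 and Ptger3, chosen by symbol because acute hypoxia lowers body temperature in mice. All 4 were found among the 55487 genes of the deposited table, and all 4 were among the 17047 genes with enough counts to be tested. All animals were C57BL/6J, and the labels name no transgene, mutation or drug in either group. Age and sex remain not given in the sources used here, body temperature was not analysed here, and each library is whole dissected hypothalamus, so many cell types share each value. Libraries held 16994473 to 21694383 counts, and the deposited counts are from polyadenylated RNA prepared with a kit that keeps strand.

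Mammals lower their set temperature when oxygen is scarce, which reduces the demand for it. Rbm3 and Cirbp encode small RNA-binding proteins, each with a single RNA-recognition motif and a glycine-rich tail, whose transcripts are the classic ones to accumulate when mammalian cells are cooled mildly, and both have also been described as responding to low oxygen in cultured cells. Trpm2 encodes a cation channel gated by ADP-ribose, oxidative stress and warmth that heat-sensitive neurons of the preoptic hypothalamus use. Ptger3 encodes EP3, the prostaglandin E2 receptor on preoptic neurons through which fever is started.

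By markers of other tissue, 3 libraries stood apart: normoxia replicate 2, hypoxia replicate 4 and normoxia replicate 1. In normoxia replicate 2, the 9 cortex and hippocampus markers summed to 629 CPM (counts scaled to a common library size, with TMM scaling between libraries), against 201 to 304 CPM in the other 7 libraries, and Slc17a7, a cortical glutamate transporter gene, was at 384 CPM. The 7 pituitary markers summed to 59.4 CPM in hypoxia replicate 4 and 90.1 CPM in normoxia replicate 2, against 14.5 to 27.8 CPM in the other 6, and Lhb was at 0 in all 8; Pomc of that list is also expressed in the hypothalamus itself. The 12 markers of hypothalamic regions, among them Avp, Oxt, Hcrt, Pmch and Agrp, were present in every library. Their sums were 700.0 to 825 CPM in hypoxia and 382 to 841 CPM in normoxia, the lowest again normoxia replicate 2. Of the 12, 11 had a positive log2 fold change (median 0.19) and 0 were called. Markers of neighbouring regions also varied: the 9 striatal markers summed to 859 to 1367 CPM in hypoxia and 503 to 1249.8 CPM in normoxia, with 9 of 9 at a positive log2 fold change and 0 called, and the 10 thalamic markers to 636 to 779 CPM in hypoxia and 589 to 1064 CPM in normoxia, with 9 negative and 0 called. The highest thalamic sum was that of normoxia replicate 1 (589 to 779 CPM in the other 7), which also had 133 CPM of the thalamic marker Prkcd (19.1 to 36.3 CPM in the other 7) and the highest sum of oligodendrocyte markers, 12130 CPM (6897 to 10475 CPM). Of the 9 oligodendrocyte markers, 9 had a negative log2 fold change (median −0.12) and 0 were called. What part tissue of these kinds had in the results was not tested.

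Of the 4 genes, 0 were called, by edgeR, DESeq2 or limma-voom, and 1 (Cirbp) had an unadjusted edgeR p under 0.05. A gene was called when its p from edgeR's quasi-likelihood test, adjusted by Benjamini-Hochberg across the 17047 genes, was under 0.05, and 366 genes (2.15%) were. For every one of the 4 the hypoxia and normoxia libraries overlapped, where 13.4% of all genes tested had groups that did not overlap. Cirbp had the smallest p of the 4, with a log2 fold change of 0.24 (95% interval 0.03 to 0.44), Trpm2 followed at 0.14, and Rbm3 and Ptger3 were at −0.10 and −0.07. In whole tissue, fewer cells of a type and less RNA per cell cannot be told apart.

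**Figure D1:**
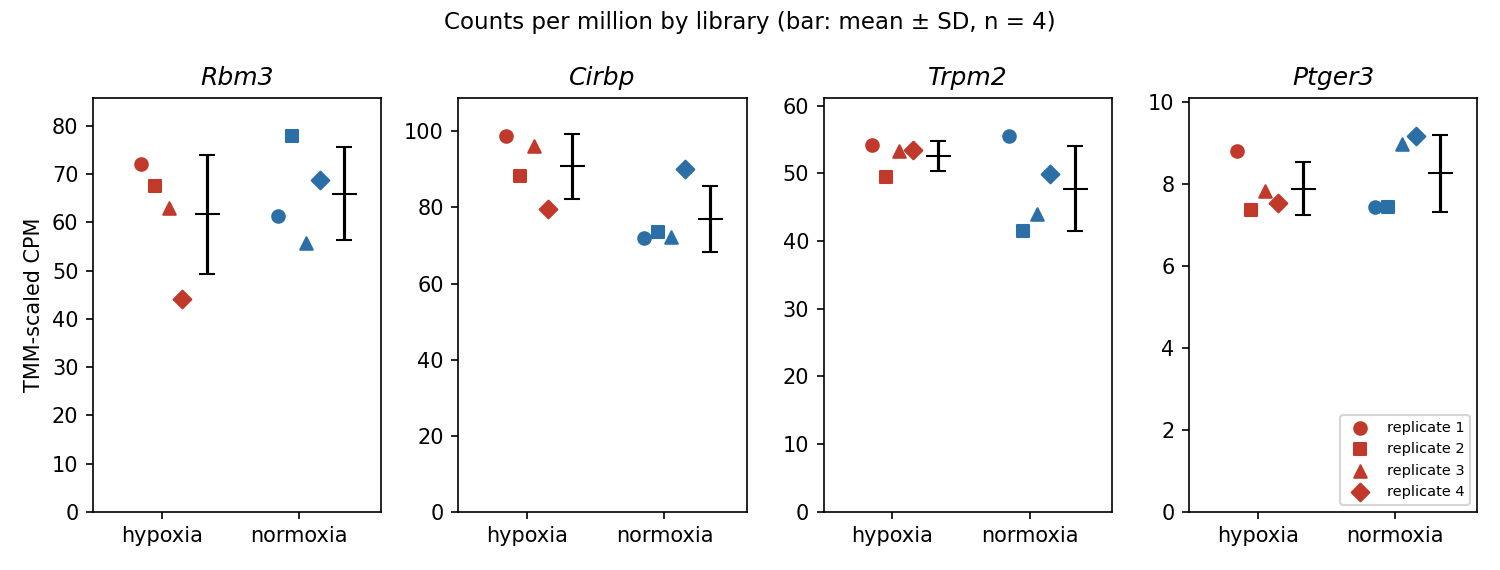
TMM-scaled CPM of Rbm3, Cirbp, Trpm2 and Ptger3 in each library, hypoxia left and normoxia right in each panel, with the marker shape giving the replicate number and the bar the mean ± SD of 4 libraries. The groups overlap in all 4 panels; the lowest Rbm3 point is hypoxia replicate 4 at 44.1 CPM and the highest is normoxia replicate 2 at 78.0 CPM.

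Cirbp (ENSMUSG00000045193) lies on chromosome 10 from 80165985 to 80172786 on the plus strand of GRCm38, the assembly of mm10, and its exons overlap no other annotated gene. The stretch before the first base of its principal transcript, chr10:80167589-80167777 in the RefSeq promoter table (build GRCm38.p6, plus strand), is shown because Cirbp has the clearest record of induction by cold and the smallest p of the 4. Capitals mark GC boxes (GGGCGG on either strand), the letters bound by Sp1, a factor reported to take part in the mild-cold response of mouse Cirbp, and the core letters bound by hypoxia-inducible factors (ACGTG or GCGTG on either strand).

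Cirbp: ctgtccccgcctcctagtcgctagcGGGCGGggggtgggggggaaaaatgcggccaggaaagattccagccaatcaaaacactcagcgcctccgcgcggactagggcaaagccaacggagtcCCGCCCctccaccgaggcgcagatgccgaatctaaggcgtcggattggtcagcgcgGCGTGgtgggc

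The stretch holds 2 GC boxes, which start 164 and 67 bases before the transcript, and 1 hypoxia core, which starts 11 bases before it. The RefSeq window of Cirbp that begins with this stretch is longer, since its transcript start lies downstream. Of all windows of 250 bases before a RefSeq transcript start, 38.6% of 32851 hold the hypoxia core and 32.7% a GC box. Both Cirbp windows in the table hold 2 hypoxia cores, with 3 GC boxes in the first, which contains the printed stretch, and 4 in the second. The window of Trpm2 holds 1 hypoxia core and 1 GC box, and that of Ptger3 holds 2 and 3. A match is a description of letters only. Whether the marked GC boxes are the sites of the reported cold response was not examined. Rbm3 had no entry in that table.

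Cirbp stood at 98.8, 88.4, 96.1 and 79.7 CPM in hypoxia replicates 1 to 4, against 72.1, 73.6, 72.2 and 90.0 CPM in normoxia replicates 1 to 4. Of the hypoxia libraries, 2 were above every normoxia library, and normoxia replicate 4 was the one normoxia library to reach into the hypoxia range. The means were 90.8 ± 8.62 CPM in hypoxia libraries and 77.0 ± 8.72 CPM in normoxia libraries (SD, n = 4 each). The fold change was 1.18 (95% interval 1.02 to 1.36), with an unadjusted p of 0.0275 and an adjusted p of 0.198 by edgeR's quasi-likelihood test. An unadjusted p under 0.05 was had by 3291 genes (19.3%), and Cirbp ranked 2365 of 17047 by p. Its log2 fold change stayed between 0.19 and 0.33 in the 17 alternative fits, none of which called it (adjusted p from 0.0995 to 0.426).

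Rbm3 (ENSMUSG00000031167) lies on chromosome X from 8138975 to 8145880 on the minus strand. It stood at 72.2, 67.5, 63.1 and 44.1 CPM in hypoxia replicates 1 to 4, against 61.4, 78.0, 55.8 and 68.8 CPM in normoxia replicates 1 to 4. The groups overlapped widely, and the extremes of the 8 libraries were both among those that stood apart by their markers, hypoxia replicate 4 at the bottom and normoxia replicate 2 at the top. Rbm3 was the most variable of the 4 genes, with a within-group SD of 0.27 on the log2 CPM scale, where the other members had 0.14 to 0.15.

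The Rbm3 means were 61.7 ± 12.3 CPM in hypoxia libraries and 66.0 ± 9.63 CPM in normoxia libraries (SD, n = 4 each). The log2 fold change was −0.10 with an SE of 0.15 (edgeR adjusted p = 0.771), and the 95% interval of the fold change was 0.738 to 1.19. Without hypoxia replicate 4 the log2 fold change was 0.036, and without normoxia replicate 2 it was −0.0030. Without both hypoxia replicate 4 and normoxia replicate 2 it was 0.12 (edgeR adjusted p = 0.385), so its sign turned on these libraries. As they held the lowest and the highest Rbm3 value, leaving them out was bound to raise the log2 fold change. Normoxia replicate 1, which also stood apart by its markers, was kept in these fits. With both left out, the means were 67.6 ± 4.55 CPM in hypoxia libraries and 62.0 ± 6.54 CPM in normoxia libraries (SD, n = 3 each). The part of cortical or pituitary tissue in the Rbm3 values of these libraries was not tested.

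Rbm3 is the one member with near copies in the annotation. A search of the transcripts of the 4 genes against all GENCODE M21 transcripts (at least 300 aligned bases and 95% identity) found, for Rbm3 alone, the processed pseudogenes Rbm3-ps, Gm10156 and Gm13624 and a stretch of 380 bases at 97.4% identity in Phospho2, a phosphatase gene. Rbm3-ps had 8 to 19 counts per library, at most 1.70% of the Rbm3 count, and Phospho2 had 409 to 579 counts, up to 53.5% of the Rbm3 count. Rbm3 also shares 94 exonic bases with Rbm3os on the opposite strand. Whether the counting used strand, and how it treated reads with several matches, remains not given in the sources used here, so the Rbm3 level is uncertain to that extent.

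Because both genes are read out of the same library, the ratio of Rbm3 to Cirbp does not depend on how libraries are scaled. As log2 of the ratio it was −0.45, −0.39, −0.61 and −0.85 in hypoxia replicates 1 to 4, against −0.23, 0.08, −0.37 and −0.39 in normoxia replicates 1 to 4. All 4 hypoxia libraries lay below all 4 normoxia libraries, but hypoxia replicate 2 (−0.3875) and normoxia replicate 4 (−0.3871) all but touched. The mean was −0.58 ± 0.21 in hypoxia libraries and −0.23 ± 0.22 in normoxia libraries (SD, n = 4 each), a difference of −0.35 (exact permutation test, two-sided p = 0.0286). That p is the smallest that 4 libraries against 4 can give. How often ratios of other gene pairs separate the groups in this way was not examined, and 13.4% of single genes tested did so.

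The difference in ratio rested in part on hypoxia replicate 4 and normoxia replicate 2. It was −0.26 without hypoxia replicate 4 (exact permutation test, p = 0.114), −0.25 without normoxia replicate 2 (exact p = 0.143) and −0.15 without both (exact p = 0.1, the smallest that 3 libraries against 3 can give). With 1 library left out, the exact permutation p was under 0.05 in 2 of 8 cases, those without hypoxia replicate 1 or 2, and ran up to 0.143.

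**Figure D2:**
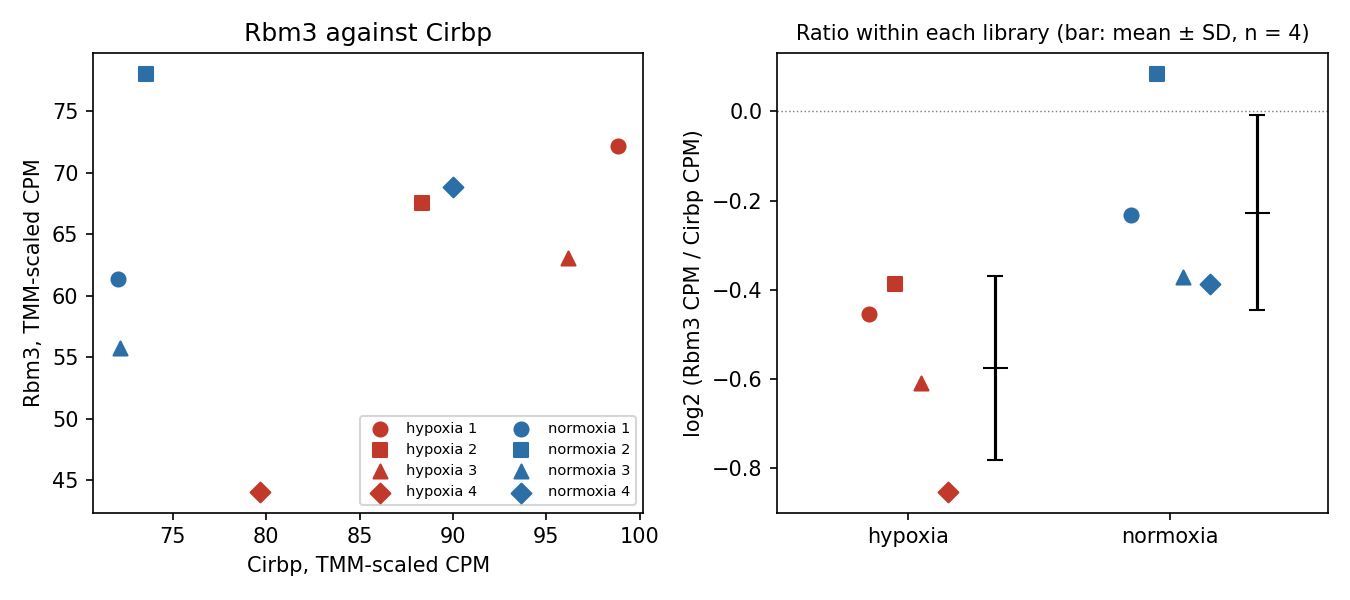
Left, Rbm3 against Cirbp in TMM-scaled CPM, 1 point per library. Right, log2 of the Rbm3 to Cirbp ratio within each library by group, with the mean ± SD of 4 libraries; the hypoxia points run from −0.85 to −0.39 and the normoxia points from −0.39 to 0.08.

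Across the 8 libraries, log2 CPM of Rbm3 and Cirbp had a Pearson r of 0.28 (exact permutation p = 0.531) and a Spearman rho of 0.43 (exact permutation p = 0.299), and 6 pairs of members were examined. Leaving out the 2 libraries farthest from the median of Rbm3, again hypoxia replicate 4 and normoxia replicate 2, gave r = 0.80 over 6 libraries. Leaving out the same 2 libraries also gave Rbm3 and Trpm2 r = 0.51, against −0.31 over all 8. Over the 6 pairs no r had a Benjamini-Hochberg adjusted permutation p under 0.796, and no rho one under 0.977. Cirbp and Trpm2 had r = 0.47 (0.76 without hypoxia replicate 1 and normoxia replicate 1), and Trpm2 and Ptger3 had r = −0.08. Libraries left out were picked by the values of the first gene of each pair. The r without them therefore cannot decide whether the genes vary together.

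Trpm2 (ENSMUSG00000009292) lies on chromosome 10 from 77907722 to 77970563 on the minus strand, and shares exonic bases with the short genes Gm22871 (47) and Gm22394 (44) on its own strand. It stood at 54.3, 49.4, 53.2 and 53.5 CPM in hypoxia replicates 1 to 4, against 55.6, 41.5, 44.0 and 49.9 CPM in normoxia replicates 1 to 4. The hypoxia libraries lay close together and inside the normoxia range, whose lowest value was normoxia replicate 2. The means were 52.6 ± 2.17 CPM in hypoxia libraries and 47.8 ± 6.30 CPM in normoxia libraries (SD, n = 4 each). The log2 fold change was 0.14 with an SE of 0.09 (edgeR adjusted p = 0.423). The 95% interval of the fold change was 0.960 to 1.26. Normoxia replicate 1, the highest library, and normoxia replicate 2, the lowest, moved this value in opposite directions: it was 0.22 without the first, 0.080 without the second, and 0.07 without hypoxia replicate 4 and normoxia replicate 2 together.

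Ptger3 (ENSMUSG00000040016) lies on chromosome 3 from 157566892 to 157645888 on the plus strand. It stood at 8.80, 7.35, 7.83 and 7.54 CPM in hypoxia replicates 1 to 4, against 7.43, 7.44, 8.96 and 9.17 CPM in normoxia replicates 1 to 4, from 138 to 202 counts per library. The highest hypoxia library lay above 2 normoxia libraries, and 1 hypoxia library lay below them all. The log2 fold change was −0.07 with an SE of 0.11 (edgeR adjusted p = 0.789), and the 95% interval of the fold change was 0.803 to 1.14. No alternative fit called it, and its log2 fold change ran from −0.12 without hypoxia replicate 1 to −0.0031 without normoxia replicate 4.

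**Figure D3:**
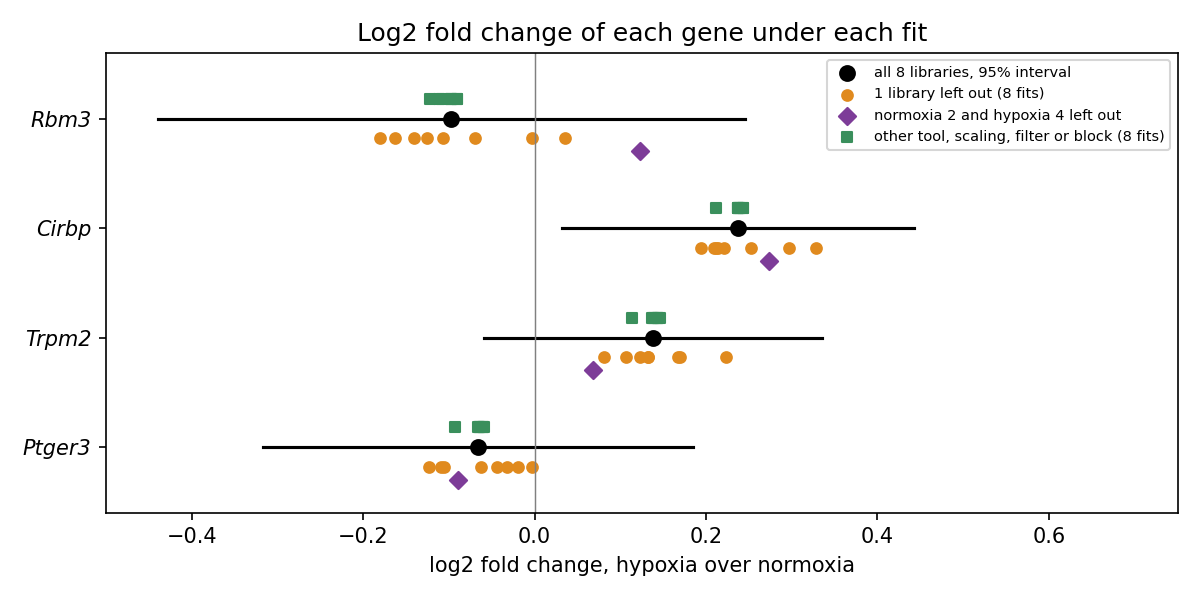
Log2 fold change of hypoxia over normoxia for each gene, with the 95% interval of the fit to all 8 libraries (black) and the estimates from alternative fits (colours). For Rbm3 the estimate crosses 0 when hypoxia replicate 4 is left out (0.036), alone or together with normoxia replicate 2 (0.12); for Cirbp all 17 alternatives lie between 0.19 and 0.33.

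Levels between genes were set side by side per length, as CPM per kilobase of the principal transcript. Rbm3 has 3 principal transcripts, and the longest, of 2792 bases, was used. A shorter length would give Rbm3 a higher value. Cirbp was highest, at 68.7 ± 6.53 in hypoxia libraries and 58.3 ± 6.60 in normoxia libraries (SD, n = 4 each), followed by Rbm3 at 22.1 ± 4.41 in hypoxia and 23.6 ± 3.45 in normoxia. Trpm2 had 7.23 ± 0.298 in hypoxia and 6.57 ± 0.866 in normoxia, and Ptger3 had 2.50 ± 0.205 in hypoxia and 2.62 ± 0.300 in normoxia. With these lengths, the ranges of the 4 genes over all 8 libraries did not overlap (54.6 to 74.8, 15.8 to 27.9, 5.70 to 7.64 and 2.34 to 2.91). The order was the same with the length of all annotated exons. The other principal transcripts of Rbm3 were not used, so its distance from Cirbp depends on that choice. By CPM alone, Cirbp ranked 3043, Rbm3 3988, Trpm2 4905 and Ptger3 11228 among the 17047 genes tested.

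The genes closest to each member by Pearson correlation of log2 CPM over the 8 libraries, out of 13750 with a mean of at least 1 CPM, are given as a description, since all genes of a library share its dissection and depth. For Rbm3 they were Rnf123 (r = 0.96), Rpl5 (0.95) and Man1c1 (0.94). For Cirbp they were Shq1 (0.98), Pm20d2 (0.96) and Zkscan2 (0.96), for Trpm2 Spock3, Sdr39u1 and Lpcat3 (0.96, 0.96 and 0.95), and for Ptger3 Taz, Nol10 and Igsf9 (0.95, 0.94 and 0.93). By edgeR, 0 of these 12 were called between the groups, and Rnf123, Rpl5, Lpcat3 and Sdr39u1 share exonic bases with genes on the opposite strand. Rbm3 was not among the 3 closest genes of Cirbp, nor Cirbp among those of Rbm3.

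Among relatives of the RNA-binding pair, 33 numbered Rbm genes other than Rbm3 were tested. Of these, 0 were called higher and 2 lower, beside 0.915% and 1.23% of all genes tested, and 25 had a negative log2 fold change. Their median log2 fold change was −0.12, where that of all genes tested was −0.0085. Hypoxia lay below normoxia without overlap in 9 of the 33 and above it in 2 (33.3% in all, beside the 13.4% of all genes). An unadjusted edgeR p under 0.05 was had by 51.5% of the 33, beside 19.3% of all genes. In this family Rbm3 sat near the middle, with 15 of the 33 above it, and Cirbp near the top, with 4 above its value.

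Rbm5, a splicing regulator, fell to 157 ± 9.02 CPM in hypoxia, against 211 ± 8.81 CPM in normoxia (SD, n = 4 each). The log2 fold change was −0.43 with an SE of 0.05 (edgeR adjusted p = 0.0111). Its hypoxia libraries ran from 150.2 to 169 CPM and its normoxia libraries from 199 to 219 CPM. Rbm12b1 fell, with 4.26 to 6.49 CPM in hypoxia and 8.23 to 9.62 CPM in normoxia (log2 −0.81, edgeR adjusted p = 0.0284), and it has a close paralog, Rbm12b2, so its value is uncertain if reads were split. With 1 library left out, Rbm5 was called in 4 of 8 fits (edgeR adjusted p from 0.00512 to 0.0584; lost without hypoxia replicate 1, 2 or 3 or normoxia replicate 4). Rbm12b1 was called in 2 of 8, those without hypoxia replicate 4 or normoxia replicate 2. Without both of these, 1 of the family was called higher and 6 lower, in a fit that called 2.66% of all genes higher and 4.31% lower.

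Of the 10 RBMX and hnRNP genes, which share the RNA-recognition motif, 0 were called by edgeR, DESeq2 or limma-voom. An unadjusted edgeR p under 0.05 was had by 4 of them, beside 19.3% of all genes (median log2 fold change −0.04). Rbmx, an X-linked splicing factor whose reads may be shared with its copy Rbmxl1, had 59.8 ± 4.91 CPM in hypoxia libraries and 81.0 ± 20.4 CPM in normoxia libraries (SD, n = 4 each; edgeR adjusted p = 0.150), with normoxia replicate 2 at 111 CPM. It was called without hypoxia replicate 4 and normoxia replicate 2 (log2 −0.30, edgeR adjusted p = 0.0133), and its log2 fold change was −0.24 without normoxia replicate 2 and −0.44 with all 8 libraries. Rbmx2 had a log2 fold change of −0.38 (edgeR adjusted p = 0.136). Hypoxia lay below normoxia without overlap for both Rbmx and Rbmx2. In all, 3 of the 10 genes had groups without overlap, beside 13.4% of all genes. Of the 7 cold-shock domain genes tested, which include the RNA chaperones of the Ybx family, 0 were called and 1 had an unadjusted p under 0.05 (median 0.04), and Carhsp1 and Ybx3 had the smallest p, at log2 0.17 and −0.26. Of 11 genes tied to the action or induction of Rbm3 and Cirbp, 0 were called and 2 had an unadjusted p under 0.05 (median −0.02), among them Creb1, a transcription factor gene, at log2 −0.25 (edgeR adjusted p = 0.156, and 0.0433 without hypoxia replicate 4 and normoxia replicate 2; log2 −0.16 without normoxia replicate 2 alone). Rtn3, whose translation RBM3 raises in mouse neurons, had a log2 fold change of 0.11 (edgeR adjusted p = 0.293; 0.073 without normoxia replicate 2), and Ntrk2, the receptor of brain-derived neurotrophic factor, one of 0.12 (edgeR adjusted p = 0.221).

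Heat shock protein genes answer warming as Rbm3 and Cirbp answer cooling. Their list also holds heat shock transcription factor genes. Of 17 tested, 0 were called higher and 1 lower, beside 0.915% and 1.23% of all genes (median log2 fold change 0.00044). The 1 called was a transcription factor gene, Hsf2. Hsf2, a heat shock transcription factor gene, was at 29.4, 29.5, 28.5 and 29.1 CPM in hypoxia replicates 1 to 4, against 33.9, 35.3, 35.5 and 35.2 CPM in normoxia replicates 1 to 4. It fell by 0.27 on the log2 scale (edgeR adjusted p = 0.032). The call held in 2 of 8 fits with 1 library left out, those without hypoxia replicate 4 or normoxia replicate 2. Hspa1b is an inducible HSP70 gene whose reads may be shared with its copy Hspa1a. It was at 2.53 ± 0.162 CPM in hypoxia libraries and 3.21 ± 1.15 CPM in normoxia libraries (SD, n = 4 each, edgeR adjusted p = 0.486). Normoxia replicate 2 was its highest library at 4.73 CPM, and the log2 fold change of −0.33 became −0.076 without that library and −0.50 without normoxia replicate 4.

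Of the temperature-gated TRP channel genes other than Trpm2, 7 of 10 had enough counts to be tested, with a median log2 fold change of 0.10. Of these 7, 0 were called and 2 had an unadjusted edgeR p under 0.05, beside 19.3% of all genes. Trpv4 encodes a channel opened by warmth and cell swelling. It had 3.62 ± 0.302 CPM in hypoxia libraries and 2.17 ± 0.541 CPM in normoxia libraries (SD, n = 4 each). Its log2 fold change was 0.73 with an SE of 0.19 (edgeR adjusted p = 0.0768). All 4 hypoxia libraries lay above all 4 normoxia libraries, where 13.4% of all genes had groups without overlap. DESeq2, which called 5.91% of all genes, called Trpv4 (adjusted p = 0.0192). Trpm4, a channel gated by calcium, had a log2 fold change of 0.26 with no overlap between the groups (edgeR adjusted p = 0.241). Without normoxia replicate 2 it was 0.17. The log2 fold change of Trpv2 was 0.10 (edgeR adjusted p = 0.726). Trpv1, the heat and capsaicin receptor gene, was at 0.160 to 0.532 CPM and was not tested. Of the Trpm family, 4 of 7 others were tested, with 0 called and 2 at an unadjusted edgeR p under 0.05, beside 19.3% of all genes. Trpm7, a channel that is also a kinase, had log2 0.16, with no overlap between the groups (edgeR adjusted p = 0.117, and 0.038 without normoxia replicate 2).

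Around Ptger3 were the other 3 prostaglandin E2 receptor genes and 9 genes for prostaglandin E2 synthesis and clearance. By edgeR, DESeq2 or limma-voom, 0 of the 3 and 0 of the 9 were called. An unadjusted edgeR p under 0.05 was had by 1 and 2 of them, beside 19.3% of all genes. Ptgs2, the inducible cyclooxygenase of fever, was at 1.06, 1.12, 1.45 and 2.05 CPM in hypoxia replicates 1 to 4, against 2.73, 4.84, 2.47 and 1.73 CPM in normoxia replicates 1 to 4. Hypoxia replicate 4 overlapped the normoxia range, and normoxia replicate 2 was the highest library (log2 −1.04 with an SE of 0.34, edgeR adjusted p = 0.138). Without normoxia replicate 2 its log2 fold change was −0.69. Ptger4, the EP4 receptor gene, had 1.61 ± 0.385 CPM in hypoxia libraries and 2.49 ± 0.539 CPM in normoxia libraries (SD, n = 4 each; edgeR adjusted p = 0.177). Ptger1 and Ptger2 had log2 fold changes of 0.36 and −0.18 and overlap genes on the opposite strand, as Ptger4 does, and Ptges, the terminal synthase gene, had 0.03. Ptger1 was at 0.55 without normoxia replicate 2, and Ptger2 ran from −0.47 without hypoxia replicate 3 to −0.0067 without normoxia replicate 3. Hpgd, the enzyme that breaks prostaglandins down, had −0.42 (edgeR adjusted p = 0.202).

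Of 6 other prostanoid genes tested, 0 were called and 1 had an unadjusted p under 0.05 (median −0.23). The prostaglandin D2 receptor gene Ptgdr and the prostaglandin F receptor gene Ptgfr had log2 −1.01 and −0.35. For Ptgdr hypoxia lay below normoxia without overlap. Ptgdr was at −0.66 without normoxia replicate 4, and Ptgfr ran from −0.60 without hypoxia replicate 1 to −0.17 without hypoxia replicate 4 or normoxia replicate 4. Of 4 genes for receptors of fever cytokines tested, 0 were called and 3 had an unadjusted edgeR p under 0.05, beside 19.3% of all genes. The cytokine genes of that list had too few counts to be tested. Il1r1, the interleukin-1 receptor gene, had log2 0.50 with hypoxia above normoxia without overlap (edgeR adjusted p = 0.0977, DESeq2 adjusted p = 0.0378). Tnfrsf1a, a tumour necrosis factor receptor gene, had log2 −0.21 with hypoxia below normoxia without overlap. Groups did not overlap in 13.4% of all genes, and DESeq2 called 5.91% of them. Of 15 markers of preoptic temperature-regulating neurons, 0 were called and 1 had an unadjusted p under 0.05 (median 0.12), with Nos1 at 0.12 and Tacr3 at 0.23 (0.11 without normoxia replicate 2). Of 8 genes tied to torpor and adenosine signalling, 0 were called, with 0 at an unadjusted edgeR p under 0.05 and 0 by DESeq2 (median 0.15), with Crhr2 at 0.34 (0.19 without normoxia replicate 2) and Trh at 0.23 (0.35 without normoxia replicate 3). Counted once each, 130 genes of these 13 lists were tested, of which 0 were called higher and 3 lower, 2.31% beside the 2.15% of all genes. DESeq2 called 12 of them (9.23%, beside 5.91% of all genes), and the fit without hypoxia replicate 4 and normoxia replicate 2 called 14 (10.8%, beside 6.98% of all genes).

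**Figure D4:**
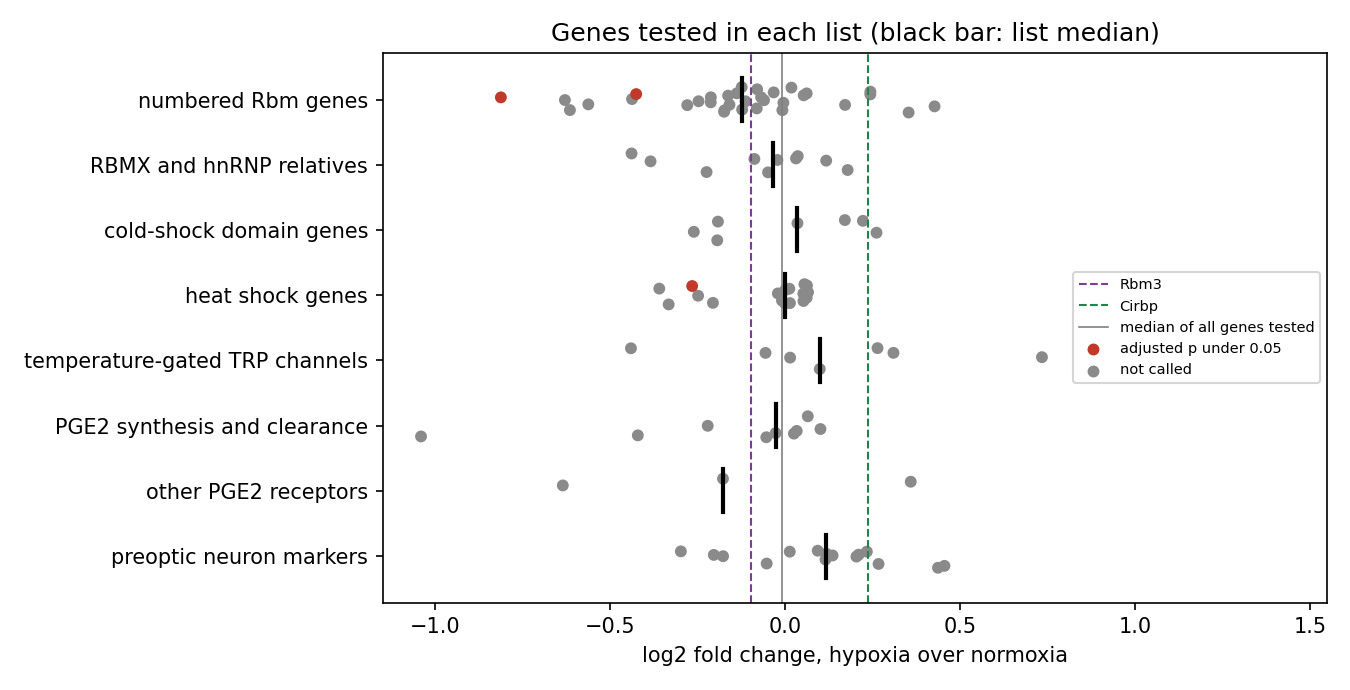
Log2 fold change of hypoxia over normoxia for each gene tested in 8 of the lists (points; red where the adjusted p was under 0.05), with the list median as a black bar and dashed lines at the values of Rbm3 (−0.10) and Cirbp (0.24). The 3 red points are Rbm12b1 and Rbm5 among the numbered Rbm genes and Hsf2 among the heat shock genes.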

How the data were processed

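The authors deposited 1 table of unnormalised counts, with a row for each Ensembl gene. Their processing notes list featureCounts, SAMtools, Trimmomatic, HISAT, HISAT2 2.0.4, DESeq2 and the mm10 build. Annotation release, strand setting and multi-mapping remain not given in the sources used here. Columns were matched to samples by the short names in the descriptions. The test was that of edgeR 4.0.16, run under R 4.3.3 (filterByExpr with minimum count 10 and minimum total 15, TMM scaling, group as the only term, quasi-likelihood F test in its default form), with Benjamini-Hochberg adjustment. SE is the log2 fold change divided by the square root of F. The test was checked on simulated counts. Correlations and ratios used log2 CPM with a prior count of 2. Alternatives used DESeq2 1.42.0, limma-voom (limma 3.58.1), other scalings, filters, a replicate block, and left-out libraries. The transcript search used BLAST 2.17.0. Symbols and coordinates come from GENCODE M21.

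The members and gene lists were chosen with earlier results of these data known. Genes named are the members, the called members of each list (at most 4, by p) or else the 2 with the smallest p, 11 fixed relatives, and the 3 closest genes by correlation. Phospho2, the pseudogenes, Rbm12b2 and Slc17a7 were named after their values were seen. The design text calls the libraries biological replicates. Within-group pairs of libraries had correlations of log2 CPM from 0.976 to 0.992 and differed by more than sampling noise (chi-square per degree of freedom from 4.62 to 37.3).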

Additional observations from a re-analysis of the deposited data

Results flagged for a closer look

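Of 94 groups of 4 libraries examined (each named gene and the Rbm3 to Cirbp ratio in each condition), 8 had 1 library farther from the nearest other, as a share of the group's whole range, than Dixon's test allows, where chance gives about 1 in 20. Among the members, Cirbp was at 90.0 CPM in normoxia replicate 4, against 72.1 to 73.6 CPM in the other 3 normoxia libraries. Without it the Cirbp log2 fold change was 0.33, and Cirbp was not called. In normoxia replicate 2, Rbmx was at 111 CPM (68.6 to 74.5 in the other 3) and Trpv2 at 18.1 CPM (26.1 to 27.6). In hypoxia replicate 4, Rpl5, one of the genes closest to Rbm3, was at 137 CPM (165 to 169.7 in the other 3). Ntrk2 was at 958 CPM in hypoxia replicate 2 (1037 to 1051) and Ptger2 at 2.03 CPM in hypoxia replicate 3 (1.01 to 1.16). Ptgfr was at 3.68 CPM in normoxia replicate 4 (2.39 to 2.58) and Hsf2 at 33.9 CPM in normoxia replicate 1 (35.2 to 35.5).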

How the results depend on the processing

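No alternative called Rbm3, Cirbp, Trpm2 or Ptger3, and Cirbp, Trpm2 and Ptger3 kept their direction in all 17. Rbm3 turned positive without hypoxia replicate 4 and, at 0.12, without both hypoxia replicate 4 and normoxia replicate 2; with 1 library left out it ran from −0.18 to 0.036. The number of genes called was 1008 with DESeq2, 21 with the replicate number as a block, 1195 without both libraries, and 26 to 693 with 1 library left out. Of the 130 list genes, DESeq2 called 12, the block 0 and the fit without both libraries 14, against 0 to 7 with 1 library left out. The cause was not tested. The ratio of Rbm3 to Cirbp differed by −0.15 without both libraries (exact permutation p = 0.1) and by −0.35 in the replicate block with sign flips (exact p = 0.125, the smallest 4 pairs can give), and from −0.41 to −0.25 with 1 library left out. Ptges, at 0.03, became −0.00081 scaled by library size alone, −0.026 without both libraries, and −0.080, −0.010 and −0.0055 without hypoxia replicate 2, hypoxia replicate 4 and normoxia replicate 4 (up to 0.11 with another library left out). Trpv2 became −0.020 without normoxia replicate 2, and reached 0.16 without another. Under the block, Rbm5, Rbm12b1 and Hsf2 were not called (edgeR adjusted p = 0.0827, 0.121 and 0.151). Hsf2 was also lost with no filter on low counts (edgeR adjusted p = 0.0645). Nothing in the labels pairs libraries of the same number. Their deviations from the group means correlated at 0.037, −0.11, 0.043 and −0.028, and 0 of the 4 hypoxia libraries correlated best with the normoxia library of their own number. Dissection also enters these deviations, so they cannot show whether libraries of the same number were handled together.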
